A study of Homo sapiens with 4 samples.

Results

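CYTOR and MIR4435-2HG are long noncoding RNA (lncRNA) genes on chromosome 2 that share a near-identical duplicated block. Their rows were taken by name from a table of lncRNA isoforms in which a number after a colon marks the isoform. CYTOR had 38 isoform rows and MIR4435-2HG had 37, 75 in all out of 104786 rows that belonged to 46902 gene names. RNA was measured by strand-specific paired-end sequencing in 2 cell lines with 2 libraries each, 4 in all. MDA-MB-231 is an established human triple-negative breast cancer line. MDA-MB-231-P3 is a subline selected from it over 3 rounds, in each of which cells injected into the tail vein of mice were recovered from the lung tumours they formed and grown in culture. No other treatment or genotype is named for either line, and both were grown as adherent cultures before RNA was taken. Whether both libraries of a line were grown as separate cultures is not stated, and p-values therefore measure only how much these libraries spread, a spread that may be technical. The subline is the outcome of a single selection series.

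CYTOR, the cytoskeleton regulator RNA, is a mostly cytoplasmic lncRNA that is often elevated in solid tumours, where it has been linked to proliferation, migration and epithelial-mesenchymal transition. MIR4435-2HG carries the name of a microRNA, miR-4435, encoded within it, and is also known as MORRBID, an lncRNA that in myeloid cells represses the neighbouring gene BCL2L11, which encodes the pro-apoptotic protein BIM. The genes arose by a duplication within chromosome 2, and reads from their shared sequence can be assigned to either copy.

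In hg19, the build of the deposited values, CYTOR is annotated as an lncRNA on the plus strand at chr2:87754300-87936259, and MIR4435-2HG as an lncRNA on the minus strand at chr2:111763592-112280953. The protein-coding gene BCL2L11 lies inside the annotated span of MIR4435-2HG on the opposite strand, at chr2:111876955-111926021. Aligning the loci gave a single block, at chr2:87730959-87997507 for the CYTOR copy and chr2:112010503-112276645 for the other in reverse orientation. The block held 265543 aligned bases with 99.4% identity, or 6.04 mismatches per kb. It covered the whole annotated span of CYTOR and 51.4% of that of MIR4435-2HG. Mismatches were spread along the block, from 2.001 to 11.5 per kb in windows of 5 kb.

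**Figure D1:**
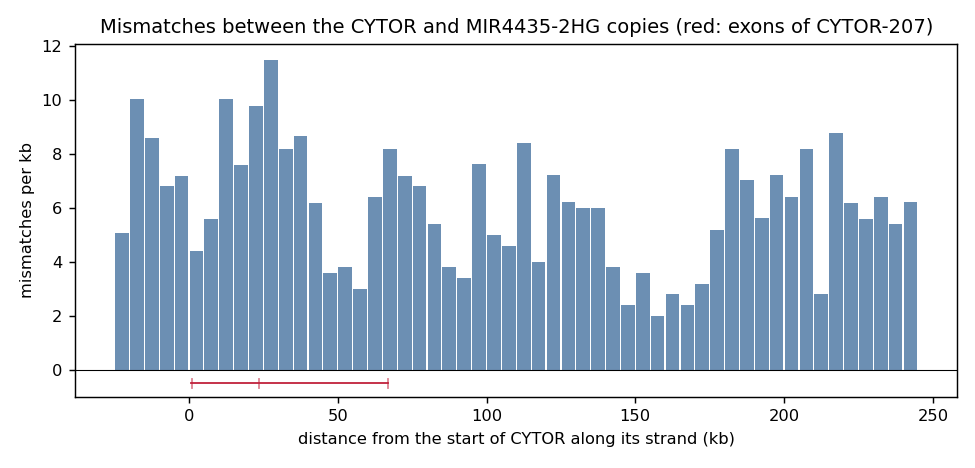
Mismatches per kb of aligned sequence between the CYTOR and MIR4435-2HG copies in hg19 (vertical axis), in consecutive windows, against the distance in kb from the annotated start of CYTOR along its strand (horizontal axis). Red marks show the 4 exons of the transcript CYTOR-207, and every window lies between 2.001 and 11.5 mismatches per kb.

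The promoters show how close the copies are at the start of the gene. The RefSeq windows (GRCh38.p14, 300 bases around each gene's start, both genes matched) are chr2:87455177-87455476 on the plus strand for CYTOR and chr2:111495112-111495411 on the minus strand for MIR4435-2HG. They are printed 5′ to 3′ with the letters TGAGTCA, the core site of AP-1 transcription factors, in capitals.
CYTOR promoter: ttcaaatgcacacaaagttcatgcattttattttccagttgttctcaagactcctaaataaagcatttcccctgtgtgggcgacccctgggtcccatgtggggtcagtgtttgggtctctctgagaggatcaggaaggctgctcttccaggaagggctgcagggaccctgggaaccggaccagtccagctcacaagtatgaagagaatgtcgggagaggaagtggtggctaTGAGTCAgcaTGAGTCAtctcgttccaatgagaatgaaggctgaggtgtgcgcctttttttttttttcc
MIR4435-2HG promoter: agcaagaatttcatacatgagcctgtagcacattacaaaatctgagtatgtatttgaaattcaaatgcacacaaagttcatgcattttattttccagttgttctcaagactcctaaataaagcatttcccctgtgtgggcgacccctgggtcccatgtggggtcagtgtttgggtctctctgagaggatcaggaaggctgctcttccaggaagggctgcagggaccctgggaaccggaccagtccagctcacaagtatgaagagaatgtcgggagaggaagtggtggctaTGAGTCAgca
The windows overlapped over 241 bases of the duplicated sequence, and 241 of these were identical. The motif TGAGTCA, searched on both strands (TGACTCA on the other), occurred 2 times in the CYTOR window and 1 time in the MIR4435-2HG window, which ends before the position of the second copy. Of 35116 RefSeq promoter windows of this length, 4.95% held the motif at least once and 0.222% at least 2 times. The motif was chosen after the sequences were seen, and a match of letters is not evidence of binding.

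The last exon of a matched pair of transcripts shows how few bases differ within it. Among the transcripts annotated in GENCODE, CYTOR-207 and MIR4435-2HG-218 are counterparts with 4 exons each, 772 and 759 bases long, with 750 identical bases and 9 mismatches. The pair CYTOR-208 and MIR4435-2HG-204 had 668 identical bases and 7 mismatches. The first 299 bases of the last exon of CYTOR-207 lie at chr2:87820726-87821024 (plus strand) in hg19, and they align without a gap with the last exon of MIR4435-2HG-218 at chr2:112186899-112187197 (minus strand). Both are printed with the bases that differ in capitals.
CYTOR-207: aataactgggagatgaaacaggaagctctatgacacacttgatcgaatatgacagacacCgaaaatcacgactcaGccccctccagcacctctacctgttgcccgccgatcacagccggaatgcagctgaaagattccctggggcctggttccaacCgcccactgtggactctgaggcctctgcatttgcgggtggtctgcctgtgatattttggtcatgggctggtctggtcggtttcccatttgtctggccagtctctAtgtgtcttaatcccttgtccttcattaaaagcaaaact
MIR4435-2HG-218: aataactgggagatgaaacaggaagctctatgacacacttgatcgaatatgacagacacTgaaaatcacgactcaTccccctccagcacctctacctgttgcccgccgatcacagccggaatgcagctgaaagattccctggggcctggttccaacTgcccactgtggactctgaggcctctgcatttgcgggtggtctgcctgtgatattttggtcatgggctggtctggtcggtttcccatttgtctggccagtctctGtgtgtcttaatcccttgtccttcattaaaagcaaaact
Counted from the first base of the CYTOR exon, with the CYTOR base first, the differences were C60T, G76T, C157T and A261G. Of the distinct 150-base windows in all annotated CYTOR transcripts, 23.9% (4913 of 20592) occurred unchanged in a MIR4435-2HG transcript, and these were 11.8% of the 41525 distinct windows of MIR4435-2HG. A window of 150 bases is the read length given in the labels. Of 39 annotated CYTOR transcripts and 108 of MIR4435-2HG, 0 and 0 consisted only of shared windows, and 4 and 8 had no shared window. The isoform numbers of the table could not be matched to these transcripts, so no sequence was assigned to a single row.

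The microRNA gene that names MIR4435-2HG is duplicated too. MIR4435-1 lies within CYTOR at chr2:87929274-87929353 and MIR4435-2 within MIR4435-2HG at chr2:112078589-112078668 in hg19. Both encode the same mature miR-4435 in RefSeq, shown with its seed (bases 2 to 8) in capitals.
hsa-miR-4435: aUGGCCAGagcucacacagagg
The microRNA itself was not measured in these libraries.

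CYTOR was among the more abundant lncRNAs of both lines, and its summed FPKM was lower in both MDA-MB-231-P3 libraries than in both MDA-MB-231 libraries. FPKM is the number of fragments relative to the length of the transcript and the mapped fragments of the library, and all isoform rows of a name were added. CYTOR summed to 700.1 and 477 FPKM in the parental libraries, against 311 and 305 FPKM in the subline. The parental libraries differed from each other by 223 FPKM, and the subline libraries by 6.22 FPKM. The means were 588 ± 158 FPKM in the parent and 308 ± 4.40 FPKM in P3 (SD, n = 2 each), 1.91-fold lower in the subline. Its mean over the 4 libraries ranked 48 among the 6444 genes with a mean of at least 0.5 FPKM, the genes that were tested.

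MIR4435-2HG had 185 and 192 FPKM in the parental libraries and 119 and 147 FPKM in the subline. Here the parental libraries lay close together and the subline libraries apart, the reverse of CYTOR, and again the lines did not overlap. The means were 189 ± 4.99 and 133 ± 19.7 FPKM (SD, n = 2 each), 1.42-fold lower in the subline, and the gene ranked 82 by its mean.

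Neither difference passed the test across all genes. On the scale of log2(FPKM + 0.5), subline minus parent, CYTOR differed by -0.90 (SE 0.32, 95% interval -1.76 to -0.054, limma adjusted p = 0.313, unadjusted p = 0.0415). MIR4435-2HG differed by -0.51 (SE 0.27, 95% interval -1.23 to 0.21, limma adjusted p = 0.439, unadjusted p = 0.125). Over the 6444 genes, 4 passed the adjusted threshold of 0.05, or 0.0621%, and 5.68% had an unadjusted p under 0.05 with a lower value in the subline. A lack of overlap in this direction was found for 21.4% of the tested genes, so that it was common in this table. A more negative difference than that of CYTOR was found for 593 of the tested genes (9.20%), and one more negative than that of MIR4435-2HG for 1320 (20.5%). In bulk RNA, fewer cells that express a gene and less RNA per cell cannot be told apart.

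Because reads can be split either way between the copies, their sum was followed as well. The combined total was 885 and 669 FPKM in the parental libraries and 431 and 452 FPKM in the subline. Each subline library lay below both parental ones. The means were 777 ± 153 and 441 ± 15.3 FPKM (SD, n = 2 each), 1.76-fold lower in the subline. With the pair fitted as 1 feature, the log2 difference was -0.80 (SE 0.29, 95% interval -1.59 to -0.014, limma adjusted p = 0.327, unadjusted p = 0.0475), against the same 0.0621% of features called.

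**Figure D2:**
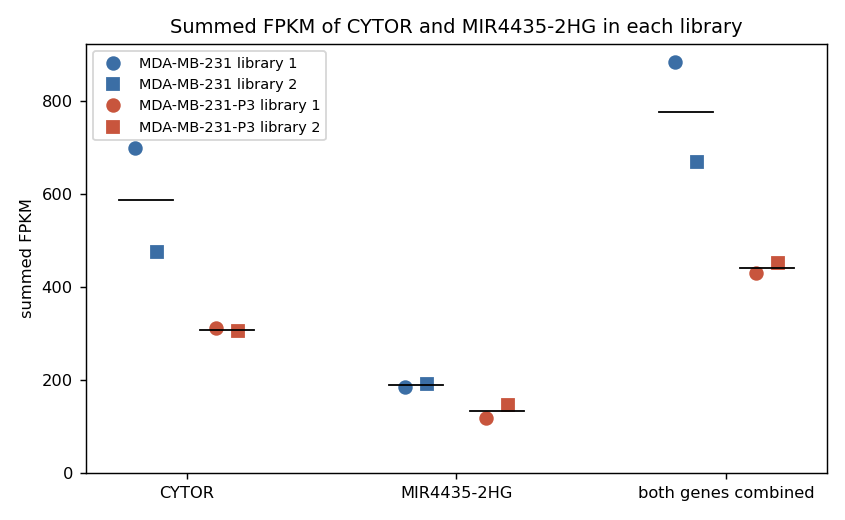
Summed FPKM (vertical axis, from 0) of CYTOR, MIR4435-2HG and both combined, with a circle or square for each library and a black line for the mean of each line. The MDA-MB-231-P3 libraries (red) lie below both MDA-MB-231 libraries (blue) in all 3 columns, and MDA-MB-231 library 1 stands apart from library 2 for CYTOR, at 700.1 against 477 FPKM.

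The size of these differences depended on how the libraries were scaled. All lncRNA rows together held 460280 and 500090 FPKM in the parent, against 351130 and 372690 FPKM in the subline, so that the summed lncRNA signal was lower there too, although the median gene was not. When FPKM were rescaled to the same sum over all rows in every library, the log2 difference of CYTOR was -0.50, that of MIR4435-2HG -0.10 and that of the combined total -0.39, while the median of all genes moved from 0.09 to 0.38. Relative to that median, CYTOR was at -0.99 as deposited and at -0.88 after rescaling, and MIR4435-2HG at -0.60 and -0.48. On the rescaled values MIR4435-2HG had 169 and 162 FPKM in the parent, against 143 and 166 FPKM in the subline, so its libraries overlapped. With the 10 most abundant genes left out of the sums, it had 192 and 160 against 135 and 154 FPKM, without overlap. The log2 differences were then -0.68 for CYTOR, -0.28 for MIR4435-2HG and -0.57 for the combined total, with a median of all genes of 0.25. With quantile normalization the log2 differences were -0.29 for CYTOR, -0.35 for MIR4435-2HG and -0.30 for the combined total, with a median of all genes of -0.03.

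CYTOR supplied most of the combined total in every library, at 79.1% and 71.3% in the parent and 72.3% and 67.5% in the subline. The lines overlapped in this share. The means were 75.2% ± 5.53 and 69.9% ± 3.42 (SD, n = 2 each), a difference of -5.27 percentage points (two-sided exact permutation p = 0.667). With 2 libraries against 2, the smallest p that this test can give is 0.333. The level of CYTOR was 3.78 and 2.48 times that of MIR4435-2HG in the parental libraries and 2.61 and 2.08 times in the subline libraries.

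Within CYTOR, 6 of the 38 isoform rows had a mean of at least 10 FPKM, and together they held 94.99% and 96.6% of the summed FPKM in the parent and 89.6% and 94.6% in the subline. The leading isoform, CYTOR:21, had 367 and 271 FPKM in the parental libraries and 162 and 173 FPKM in the subline. It was lower in both subline libraries, by -0.91 on the log2 scale (SE 0.33, limma adjusted p = 0.371). Its share of the gene was 52.4% and 56.8% in the parent and 52.1% and 56.8% in the subline, with means of 54.6% ± 3.17 and 54.5% ± 3.36 (SD, n = 2 each, two-sided exact permutation p = 0.667). The share differed between libraries 1 and 2 of each line by more than between the means of the lines.

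CYTOR:12 was the most variable of the abundant isoforms, at 150 and 50.04 FPKM in the parent, against 12.4 and 24.0 FPKM in the subline. Both subline values were below both parental ones, and the parental values differed by 100.1 FPKM. The log2 difference was -2.29 (SE 0.69, limma adjusted p = 0.342), and -1.51 without MDA-MB-231 library 1. This isoform made up 44.8% of the gap between the parental libraries in summed CYTOR, and CYTOR:21 made up 42.8%. Of the gap between the means of the lines, CYTOR:12 made up 29.2% and CYTOR:21 53.9%. Without CYTOR:12 the sum was 549.99 and 427 FPKM in the parent, against 299 and 281 FPKM in the subline, which differ by -0.74 on the log2 scale. Its own share of the gene was 21.4% and 10.5% in the parent and 3.99% and 7.87% in the subline.

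CYTOR:3 had the smallest p among the abundant isoforms. It stood at 29.4 and 24.4 FPKM in the parent, against 10.9 and 11.5 FPKM in the subline, and the gap between the lines was wider than the spread within either. The log2 difference was -1.22 (SE 0.29, limma adjusted p = 0.321, unadjusted p = 0.0128). CYTOR:13, the second in abundance, had 78.7 and 84.6 FPKM in the parent, against 59.0 and 52.8 FPKM in the subline (log2 difference -0.54, limma adjusted p = 0.493). CYTOR:25 overlapped between the lines, with 25.6 and 17.9 FPKM in the parent, against 18.5 and 10.1 FPKM in the subline. CYTOR:18 had the opposite sign, with 14.6 and 12.6 FPKM in the parent, against 16.1 and 16.7 FPKM in the subline (log2 difference 0.26, limma adjusted p = 0.697). Its share of the gene was 2.09% and 2.65% in the parent and 5.16% and 5.48% in the subline, so that it took a larger part of a smaller sum.

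**Figure D3:**
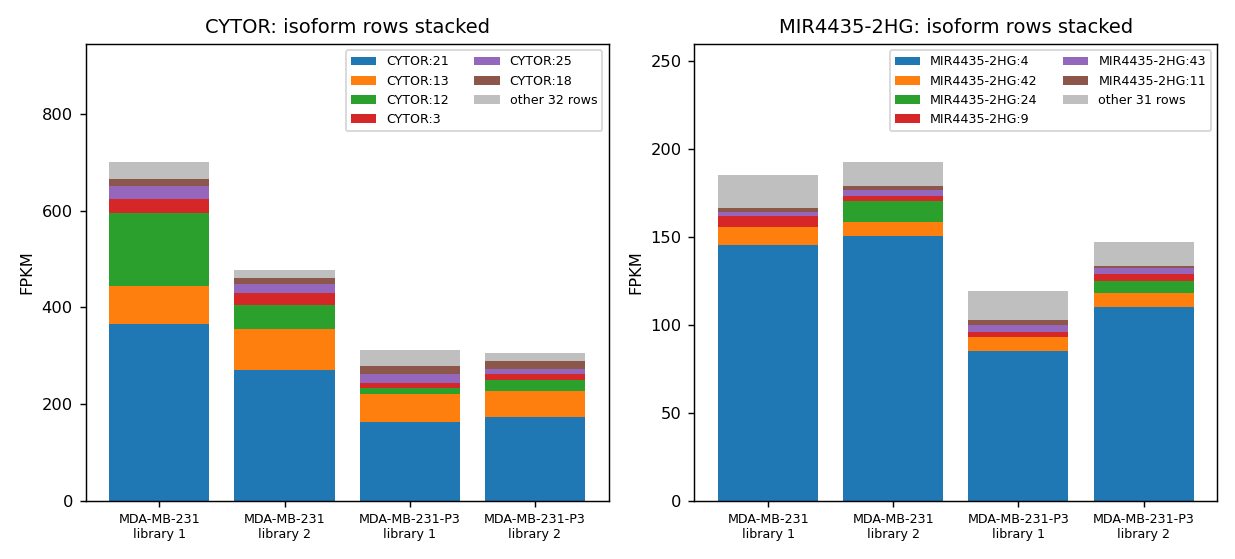
FPKM of the isoform rows of CYTOR (left) and MIR4435-2HG (right), stacked from 0 for each library, with the 6 most abundant rows in colour and all others in grey. CYTOR:12 (green, left) takes 150 FPKM in MDA-MB-231 library 1 and at most 50.04 FPKM in the other 3 libraries, and MIR4435-2HG:4 (blue, right) holds most of its gene in every library.

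The other 14 tested CYTOR rows were low. Of these, 8 had a mean between 1 and 10 FPKM and summed to 25.2 and 12.3 FPKM in the parent, against 22.6 and 13.99 FPKM in the subline. They were CYTOR:33, CYTOR:9, CYTOR:47, CYTOR:23, CYTOR:46, CYTOR:41, CYTOR:14 and CYTOR:28, and in 7 of the 8 the lines overlapped. The exception, CYTOR:41, was listed near 0 in the parent, with 3.76 and 0.998 FPKM in the subline. Its log2 difference was 2.34 (SE 0.62, limma adjusted p = 0.328, unadjusted p = 0.0181). The remaining 6, with means from 0.5 to 1 FPKM, were CYTOR:43, CYTOR:15, CYTOR:22, CYTOR:44, CYTOR:11 and CYTOR:40. CYTOR:22 was lower in both subline libraries, at 1.07 and 0.589 against 0.458 and 0.390 FPKM, and the other 5 overlapped. Of these, CYTOR:43 was listed at 3.03 FPKM in MDA-MB-231-P3 library 1 and near 0 in the other 3 libraries. Values listed near 0 are estimates and not gaps, such as 1.36e-26 FPKM for CYTOR:43 in MDA-MB-231 library 1. Whether the isoform was absent there was not tested. The 18 rows with a mean below 0.5 FPKM were not tested and held 0.292% to 0.808% of the gene. Among these, CYTOR:35 and CYTOR:37 had the same value in each library, so that they are not separate measurements.

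MIR4435-2HG was made up mainly of a single row. MIR4435-2HG:4 had 145 and 151 FPKM in the parent, against 85.0 and 110.2 FPKM in the subline, and both subline libraries were lower. The log2 difference was -0.61 (SE 0.31, limma adjusted p = 0.484). It accounted for 90.5% of the gap between the means of the lines in the summed gene. Its share was 78.4% and 78.3% in the parent and 71.3% and 74.9% in the subline. The means were 78.4% ± 0.0413 and 73.1% ± 2.57 (SD, n = 2 each), and the lines did not overlap, with the smallest p that the two-sided exact permutation test can give (0.333).

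The remaining 16 tested rows of MIR4435-2HG each had a mean below 10 FPKM. MIR4435-2HG:42 was the most even of the larger ones, at 10.2 and 7.85 FPKM in the parent, against 8.24 and 7.90 FPKM in the subline. MIR4435-2HG:24 was listed near 0 in MDA-MB-231 library 1 and at 0.00137 FPKM in MDA-MB-231-P3 library 1, but at 11.99 and 6.52 FPKM in library 2 of the parent and of the subline. MIR4435-2HG:9 had 6.16 and 2.75 FPKM in the parent, against 2.47 and 4.27 FPKM in the subline, with overlap. Both subline libraries were higher for MIR4435-2HG:13, at 1.83 and 0.872 against 2.08 and 3.88 FPKM. The same held for MIR4435-2HG:27, at 1.74 and 1.32 against 2.20 and 2.22 FPKM, and for MIR4435-2HG:1, at 1.14 and 0.954 against 1.78 and 1.65 FPKM. Both were lower for MIR4435-2HG:15, at 2.28 and 2.22 against 1.66 and 0.671 FPKM, and for MIR4435-2HG:45, at 0.488 and 0.863 against 0.393 and 0.479 FPKM. The other 8 (MIR4435-2HG:43, MIR4435-2HG:11, MIR4435-2HG:14, MIR4435-2HG:40, MIR4435-2HG:35, MIR4435-2HG:33, MIR4435-2HG:39 and MIR4435-2HG:29) overlapped between the lines. The 20 rows below 0.5 FPKM held 0.452% to 2.18% of the gene.

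Across the isoforms of both genes, limma called 0 of the 20 tested CYTOR rows and 0 of the 17 tested MIR4435-2HG rows, where 0 of all 8432 tested isoform rows were called (0.0%). At an unadjusted p under 0.05 there were 4 CYTOR rows (CYTOR:3, CYTOR:41, CYTOR:12 and CYTOR:21) and 0 MIR4435-2HG rows, against 13.3% of all tested rows. Of the 4, all but CYTOR:41 were lower in the subline, a direction and threshold met by 5.46% of all tested rows. With the library number as a block, CYTOR:21 had an unadjusted limma p of 0.0637, above that threshold. Negative log2 differences were found for 13 of 20 CYTOR rows (median -0.46) and 11 of 17 MIR4435-2HG rows (median -0.21), against 46.0% of all tested rows and an overall median of 0.085. Both subline libraries lay below both parental ones for 5 CYTOR and 3 MIR4435-2HG rows and above them for 2 and 3, where 20.7% of all tested rows lay below and 27.3% above. The counts of lower rows are near the background of the table for both genes.

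Several member isoforms differed with the library number. In 9 of the 20 CYTOR rows both libraries numbered 1 were higher than both numbered 2, and in 0 rows the reverse was found. Over all tested isoform rows, these patterns held for 14.2% and 13.6%. For MIR4435-2HG they held for 3 and 2 of 17 rows. This count was made after the values were seen, and the labels do not say that equal numbers mark a shared culture, day or batch.

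**Figure D4:**
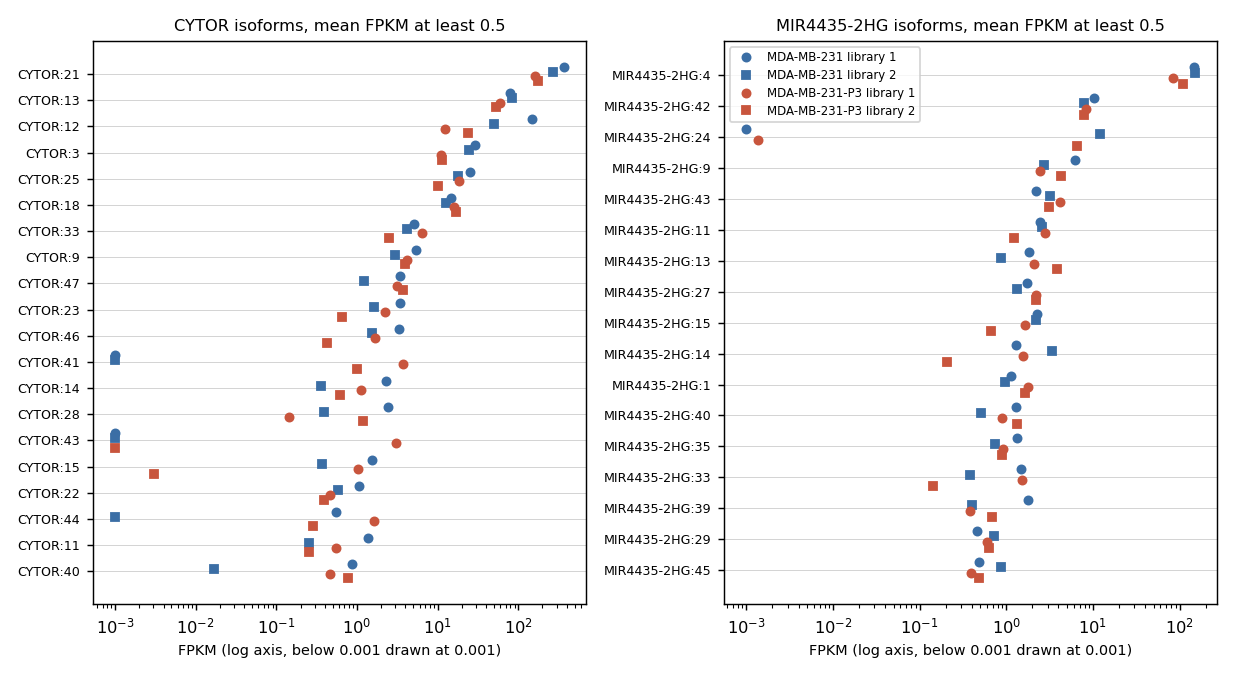
FPKM (horizontal log axis, values under 0.001 drawn at 0.001) of each isoform row with a mean of at least 0.5 FPKM, for CYTOR (left, 20 rows) and MIR4435-2HG (right, 17 rows). Blue marks are MDA-MB-231 and red marks MDA-MB-231-P3, circles are library 1 and squares library 2. Among the abundant rows, the subline is lower without overlap for CYTOR:21, CYTOR:13, CYTOR:12, CYTOR:3 and MIR4435-2HG:4, and higher for CYTOR:18. The lines are mixed for most low rows.

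The genes whose profile over the 4 libraries was closest to each member were sought among 611 other genes with a mean of at least 10 FPKM. Likeness was the root mean square difference between profiles of log2(FPKM + 0.5), each centred on its own mean. For CYTOR the closest was SNHG8, a host of small nucleolar RNAs, with a difference of 0.063 and values of 1487 and 1088 FPKM in the parent, against 629 and 648 FPKM in the subline. It was followed by TCONS_00013455 (0.082) and lnc-FANCM-8 (0.085). For MIR4435-2HG the closest were lnc-C19orf25-2 (0.041), lnc-LPCAT3-1 (0.043) and MAPKAPK5-AS1 (0.046). The profiles of CYTOR and MIR4435-2HG differed from each other by 0.31, so that 82 genes were closer to CYTOR than its own paralogue was, and 175 were closer to MIR4435-2HG. Profiles of 4 points leave many genes alike, and these values are a description.

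Other lncRNAs named as microRNA hosts (names starting with MIR and ending with HG, and DLEU2) had 24 tested members besides MIR4435-2HG. Of these, 10 had a negative and 14 a positive log2 difference, with a median of 0.21 against 0.09 over all tested genes, and limma called 0, against the 0.0621% of all genes. The most abundant was MIR663AHG, at 6241 and 10760 FPKM in the parent, against 8337 and 10322 FPKM in the subline, with overlap. MIR3681HG was lower in both subline libraries, with 69.2 and 61.2 FPKM in the parent, against 38.0 and 35.2 FPKM in the subline (log2 difference -0.82, limma adjusted p = 0.290). MIR17HG, the host of a cluster of growth-promoting microRNAs, had 33.6 and 30.4 against 34.7 and 41.5 FPKM. MIR100HG had 23.6 and 22.8 against 44.2 and 41.2 FPKM (log2 difference 0.87, limma adjusted p = 0.282). Both subline libraries were lower for 4 of the 24 hosts and higher for 11, where 21.4% and 28.9% of all tested genes were. An unadjusted limma p under 0.05 was found for 8 of the 24, against 15.2% of all tested genes. Of these 8, all but MIR3681HG were higher in the subline.

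Among lncRNAs often studied in cancer and metastasis, 15 of the 28 names listed were tested. Of these, 8 were negative and 7 positive, where 45.3% of all tested genes were negative, with a median of -0.0061 against 0.09 over all. The test called 0 of the 15, against the 0.0621% of all genes. An unadjusted limma p under 0.05 was found for 2, both higher in the subline, against 15.2% of all tested genes. Libraries did not overlap for 3 members lower in the subline and 5 higher, against 21.4% and 28.9% of all tested genes. The nuclear lncRNA MALAT1 was higher in both subline libraries, at 717 and 952 against 1982 and 1616 FPKM (log2 difference 1.11, limma adjusted p = 0.282). GAS5, a growth-arrest-associated host of small nucleolar RNAs, had 1073 and 932 against 1132 and 1207 FPKM. NORAD, which binds PUMILIO proteins, had 179.5 and 109 against 212.7 and 209 FPKM, and NEAT1, the scaffold of paraspeckles, had 141 and 99.8 against 171 and 116 FPKM. MALAT1, GAS5 and NORAD were higher in both subline libraries, where CYTOR and MIR4435-2HG were lower, NEAT1 overlapped, and 0 of the 4 passed.

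**Figure D5:**
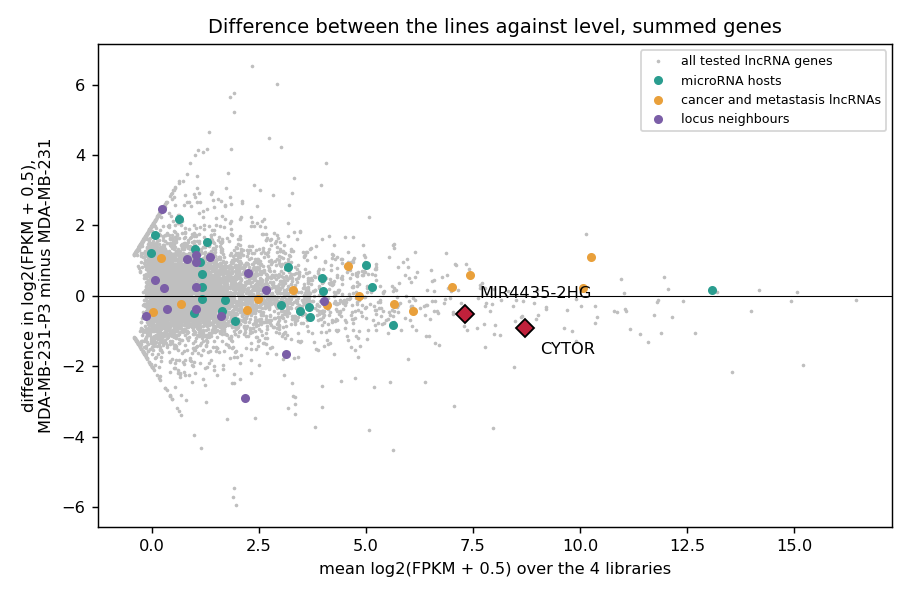
Difference in log2(FPKM + 0.5), MDA-MB-231-P3 minus MDA-MB-231 (vertical axis), against the mean of log2(FPKM + 0.5) over the 4 libraries (horizontal axis) for the 6444 tested genes (grey) with 3 lists in colour. CYTOR at -0.90 and MIR4435-2HG at -0.51 (red diamonds) lie in the upper range of levels and within the spread of the grey points.

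Rows named for genes that neighbour either copy served to look at the surrounding loci. Of 70 such lncRNA names, 17 were tested, with 7 negative and 10 positive differences and a median of 0.22. The test called 0 of the 17, against 0.0621% of all tested genes. The most abundant, lnc-PLGLB2-3, had 20.2 and 13.8 FPKM in the parent, against 18.3 and 12.3 FPKM in the subline. The lncRNA lnc-PLGLB1-6 had 7.16 and 31.2 against 3.37 and 5.74 FPKM, lnc-MERTK-2 had 8.41 and 16.7 FPKM in the parent and was listed at 0 and at 4.93 FPKM in the subline, and lnc-ANAPC1-4 had 2.73 and 10.6 against 7.31 and 5.21 FPKM. These 4 are named for their abundance. Over all 17 neighbours, both subline libraries were lower for 3 and higher for 6, against 21.4% and 28.9% of all tested genes. An unadjusted limma p under 0.05 was found for 3, all higher in the subline, against 15.2% of all tested genes. Such names denote a neighbouring gene and not a function.

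The table holds lncRNAs only, so the labelled cell type could be checked against few markers. The tumours grew in mice, while reads were aligned to human hg19, so the markers were not a check for cells of the host. Of 12 lncRNA markers of other cells (lung epithelium, lung mesenchyme and endothelium, fibroblasts, blood cells and luminal breast cells), 7 had rows. Of the 2 fibroblast markers 0 had a row, so fibroblasts were not covered, and of the 3 lung epithelial markers only 1 did. The summed level of the 7 markers was 1.02 and 2.14 FPKM in the parent, against 2.72 and 1.74 FPKM in the subline. The luminal marker GATA3-AS1 was at 0 to 0.0204 FPKM. The lung epithelial marker NKX2-1-AS1 had 0.446 and 0.357 FPKM in the parent, against 0.577 and 0.505 FPKM in the subline. The lung mesenchymal marker FENDRR was listed at 0 in both parental libraries and had 0.0899 and 0.0246 FPKM in the subline. Both of these were thus higher in both MDA-MB-231-P3 libraries, at levels under 1 FPKM. Among all tested genes, 28.9% were higher in both subline libraries, but NKX2-1-AS1 and FENDRR had means under 0.5 FPKM and were not among them. ADAMTS9-AS2, the other marker of lung mesenchyme and endothelium, overlapped between the lines. It had 0.175 and 0.702 FPKM in the parent, against 0.915 and 0.304 FPKM in the subline. Of the blood cell markers, LINC00861 was at or near 0 in all 4 libraries. LINC00926 had 0.324 and 1.07 FPKM in the parent, against 1.05 and 0.859 FPKM in the subline, with overlap. MIR155HG had 0.0747 and 0.00139 against 0.0783 and 0.0240 FPKM, also with overlap. The part of other cells in the results was not tested.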

How the data were processed

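Strand-specific paired-end libraries were made from the mRNA fraction of total RNA, and the authors aligned reads to hg19 with HISAT2, per the labels' protocols. StringTie is named in the submitters' processing notes, while its role, the tool versions and the lncRNA annotation are not stated there. Each deposited value is the FPKM of a single lncRNA isoform, as normalized by the authors, per the labels' protocols. The per-sample files equalled the series table. FPKM are not counts, so depth and counting error are unknown.

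Rows were summed per gene name. Features with a mean of at least 0.5 FPKM were transformed to log2(FPKM + 0.5) and fitted in R 4.3.3 by limma 3.58.1 (two-sided, moderated with a trend, no block), using Benjamini-Hochberg adjustment over all tested features and a threshold of 0.05. Isoform rows, and the combined total in place of both genes, were fitted likewise. The procedure was tested on simulated data. Shares were compared with exact permutation tests. Sequences came from RefSeq tables (GRCh38.p14) and GENCODE 44 lifted to hg19, aligned with minimap2 2.31 and Biopython 1.88.

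Named were all tested member isoforms, the 4 most abundant tested members of each of 3 lists, and the 3 genes of most similar profile. The members and lists were chosen with earlier results of these data known. Alternatives were other pseudocounts (0.1 and 1), filters and scalings, no trend, a replicate block, single libraries left out, and leading isoforms only. The sum without CYTOR:12 was added after the data were seen.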

Additional observations from a re-analysis of the deposited data

How the results depend on the processing

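The differences of CYTOR, MIR4435-2HG and their combined total were negative under each alternative tried and were not called under any of those with a test (the sum without CYTOR:12 gave a value only, -0.74). Their log2 values ranged from -1.18 to -0.29 (limma adjusted p 0.289 to 0.735), from -0.66 to -0.10 (0.387 to 0.850) and from -1.004 to -0.30 (0.303 to 0.618). Without single libraries the ranges were -1.18 to -0.63, -0.66 to -0.36 and -1.004 to -0.60. With 1 library left out, the spread of the remaining one is taken to equal that of the other line. From the leading isoforms alone the differences were -0.91, -0.61 and -0.81. Among member isoforms, 0 were called under any alternative, with 2 to 6 at an unadjusted p under 0.05. The CYTOR share of the combined total differed by -9.18 to -1.35 percentage points without single libraries (-1.35 and -9.18 without MDA-MB-231 library 1 or 2, -7.68 and -2.85 without MDA-MB-231-P3 library 1 or 2), so its size moved with single libraries of both lines. The difference in the share of CYTOR:21, -0.134 points, changed sign when single libraries were left out (-2.51 to 2.24, with 2.11 without MDA-MB-231 replicate 2 and 2.24 without MDA-MB-231-P3 replicate 1), and that of MIR4435-2HG:4 ranged from -7.06 to -3.43. The cause was not tested.

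Over the same alternatives the median log2 difference ranged from 0.081 to 0.57 for microRNA hosts, from -0.092 to 0.39 for cancer lncRNAs and from -0.033 to 0.53 for locus neighbours. The count of 4 genes called by limma over the whole table became 0 with a pseudocount of 1, without a filter or without the trend. It became 2 with quantile normalization, and 5 with FPKM rescaled to equal sums, with or without the 10 most abundant features. With a minimum of 1 FPKM, 6 isoforms, none a member, were called against 0. With the replicate number as a block, limma gave the same differences of -0.90, -0.51 and -0.80 with adjusted p of 0.345, 0.460 and 0.357, and 0 of all genes were called, against 4 without it (887 against 978 at an unadjusted p under 0.05). For the shares, the mean of the differences between same-numbered libraries was -5.27, -0.134 and -5.25 points. Deviations of same-numbered libraries correlated at r = 0.0777 over genes, and the labels do not say that numbers pair libraries. Read depth is unknown, so the counting error of low isoforms could not be given.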
